A study of Homo sapiens with 2 samples.

Results

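The PARP and tankyrase genes examined here are 10 human genes whose products use NAD to attach ADP-ribose to other molecules, or belong to that enzyme family. They were taken by symbol from the deposited tables, as PARP1, PARP2, PARP3, PARP4, PARP9, PARP10, PARP12, PARP14, TNKS and TNKS2, and all 10 were present among 26255 listed symbols. RNA came from tumours of HT-29 cells, a long-established line of human colon cancer, grown under the skin of female NOD SCID mice, which lack T and B cells. All cells had been cultured with every nutrient before implantation. The mice were 5 weeks old when obtained, and after implantation they received either normal food, or food lacking methionine, tryptophan and niacin. Rearing lasted 2 weeks by one statement of the design text and 3 weeks by another. Each diet gave 1 library, and the sources used here do not say whether a library was 1 tumour or a pool. No difference below therefore has a replicate check, no test between diets was possible, and the diet cannot be told apart from any other difference between the tumours.

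A PARP enzyme splits NAD, releases nicotinamide and transfers the ADP-ribose to a protein or nucleic acid. PARP1, PARP2 and the tankyrases build chains of it, whereas PARP3, PARP10, PARP12 and PARP14 add single units, and PARP9 has little activity of its own. Niacin and tryptophan are the dietary sources of NAD, so the diet withdrew the precursors of the cofactor on which these enzymes depend. The comparison asks whether RNA of the enzymes, and of the genes around them, differed between the tumours.

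Values are FPKM, which are fragments per kilobase of transcript scaled to the depth of the library and so allow levels of different genes to be compared per length. A difference is given as the log2 ratio, log2((depleted + 1)/(normal + 1)) in FPKM, which is positive where the depleted diet was higher and understates differences of low genes. Steps in the low values put depth at about 7.87e+06 fragments in the library from normal food and 7.58e+06 in the other. From these and the length of each gene's principal transcript, a 95% range of counting error was estimated for each log2 ratio. It covers counting error only, not the variation between tumours. No such range was estimated for a shift between the diets in the ratio of one gene to another. In all, 12414 genes averaged 1 FPKM or more over both libraries, and their median log2 ratio was -0.003, with quartiles of -0.13 and 0.13.

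All 10 colon epithelial markers examined reached a mean of 1 FPKM, with 4 higher and 6 lower on the depleted diet. On the normal and depleted diets KRT20 was 610 and 540 FPKM and EPCAM was 472 and 444 FPKM. KRT18, among the higher ones, was 2076 and 2334 FPKM (log2 ratio 0.17). Of 5 endothelial markers none reached a mean of 1 FPKM, and TEK and KDR were listed at 0 in both libraries. Of 5 leukocyte markers 2 did, both higher on the depleted diet: CD14 was 0.709 and 1.49 FPKM (log2 ratio 0.55), and LAPTM5 was 0.873 and 1.75 FPKM (0.55). The other 3 were below that mean and went the other way, each listed at 0 on the depleted diet. On the normal diet AIF1 was 0.422 FPKM, CSF1R 0.0358 FPKM and PTPRC 0.0268 FPKM. The summed level of all 5 was 2.07 and 3.24 FPKM, and their part in the results below was not tested. Of 6 fibroblast markers 2 reached a mean of 1 FPKM, and these differed in opposite directions. COL1A1 was 2.33 and 2.77 FPKM (0.18, counting range -0.08 to 0.43). LUM was 1.99 and 0.966 FPKM (-0.61, counting range -1.02 to -0.19). The summed level over all 6 was 4.42 and 3.86 FPKM, with DCN at 0 in both. Host cells are mouse cells and the values are for human genes, so these markers do not measure how much host tissue a tumour held. In a bulk sample, fewer cells of a kind and less RNA per cell cannot be told apart.

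All 10 members were above 1 FPKM in both libraries. On the normal diet their levels ran from 4.37 FPKM for TNKS to 73.9 FPKM for PARP4, and their sum was 230 FPKM with normal food and 231 FPKM with depleted food. The log2 ratio was above 0 in 4 members and below 0 in 6, with a median of -0.01 and quartiles of -0.06 and 0.05. Scaling both libraries to a common sum moved this to 6 above and 4 below, with a median of 0.03. At a threshold of 1.2-fold, 1 member of 10 was lower on the depleted diet and 0 were higher. Among all 12414 genes, 10.5% were at least 1.2-fold lower and 10.2% at least 1.2-fold higher, so the members' counts were close to the background. After scaling to a common sum, those shares were 7.98% and 13.5%.

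The order of the members by level was the same on both diets with 1 exception. From the highest it ran PARP4, PARP1, PARP14, PARP9, TNKS2, then PARP2 and PARP12, then PARP10, PARP3 and TNKS. PARP2 and PARP12 were level on the normal diet at 13.7 and 13.6 FPKM, a gap within counting error and the 1 such gap between neighbours with normal food. On the depleted diet PARP12, at 13.1 FPKM, stood above PARP2, at 10.4 FPKM. PARP10 and PARP3, next to each other lower down, were at 9.43 and 7.23 FPKM on the normal diet and 9.28 and 7.59 FPKM on the depleted diet. With depleted food the gaps from PARP2 to PARP10 and from PARP10 to PARP3 were within counting error, and the other 7 of 9 were not.

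PARP1, PARP2 and PARP3 are the members that bind broken DNA and are switched on by it. PARP1, the most abundant DNA-break sensor of the family, was 36.4 FPKM with normal food and 39.8 FPKM with depleted food. Its log2 ratio was 0.13, with a counting range of 0.008 to 0.24, and it was the highest ratio among the members. The ratio lay inside the middle of the distribution for all genes: 25.6% of the 12414 genes had one at least as high.

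PARP2, which shares much of PARP1's role at single-strand breaks, was 13.7 FPKM with normal food and 10.4 FPKM with depleted food, or 0.759 times as high. The log2 ratio was -0.37, with a counting range of -0.66 to -0.07, from about 182 and 133 fragments. It was the 1 member past 1.2-fold, and 5.45% of all genes had a ratio as low or lower. Among 2757 genes of similar level, averaging 10 to 20 FPKM, 8.81% were at least 1.2-fold lower. At 1.5-fold it was not past the threshold, nor was any other member, beside 3.17% of all genes that were, counting both directions.

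PARP3, a single-unit enzyme active at double-strand breaks, was 7.23 and 7.59 FPKM on the normal and depleted diets, with a log2 ratio of 0.06 and a counting range of -0.25 to 0.37. The 3 DNA-dependent members therefore did not share a direction. Their summed level was 57.4 FPKM with normal food and 57.8 FPKM with depleted food, while the balance between them differed. PARP1 was 2.65 times as high as PARP2 on the normal diet and 3.82 times as high on the depleted diet, per length.

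PARP2 lies head to head with RPPH1, the RNA component of ribonuclease P, which is transcribed the other way by RNA polymerase III. The 174 bases between the starts of both genes in GENCODE release 29 are shown because PARP2 was the member with the largest difference. They are given 5′ to 3′ in the direction of PARP2, from RefSeq's promoter table, at chr14:20343408-20343581 (GRCh38.p14, plus strand). Capitals mark a match to TTCNNNGAA, the core of a STAT site.
PARP2: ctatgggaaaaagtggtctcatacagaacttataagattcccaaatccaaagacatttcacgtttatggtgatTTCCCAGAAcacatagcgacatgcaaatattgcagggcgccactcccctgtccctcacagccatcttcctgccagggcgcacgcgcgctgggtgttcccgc

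The motif TTCNNNGAA reads as itself on both strands and occurs in 7.66% of 35116 promoter windows of this kind. RPPH1 was listed at 13.6 FPKM with normal food and 17.9 FPKM with depleted food, a log2 ratio of 0.37, opposite in sign to PARP2. It has no poly(A) tail, and a library selected for poly(A) RNA would hold little of such RNA. Its value is therefore not taken as a measure of its level in the cell.

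Of 14 genes that act with PARP1 and PARP2 at strand breaks, 13 had a mean of at least 1 FPKM, and the ratio was above 0 in 9 of these and below 0 in 4, with a median of 0.10. Over all 12414 genes the ratio was above 0 in 6132 and below 0 in 6282, with a median of -0.003. At 1.2-fold, 2 of the 13 were higher and 1 lower, beside 10.2% and 10.5% of all genes. After scaling to a common sum, the ratio was above 0 in 10 of the 13 and below 0 in 3. The median was then 0.15, beside 0.04 for all genes. HPF1, listed as C4orf27, which completes the active site of PARP1 and PARP2, was 5.26 and 6.77 FPKM on the normal and depleted diets (log2 ratio 0.31, counting range -0.19 to 0.81). FEN1, a flap nuclease, was 39.2 and 48.5 FPKM (0.30, counting range 0.15 to 0.45).

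XRCC1, the scaffold that ADP-ribose chains recruit, was 22.0 FPKM with normal food and 24.5 FPKM with depleted food (0.15). LIG3, the ligase it carries, was 19.5 and 22.7 FPKM (0.21, counting range 0.11 to 0.32). The lowest ratio of the list was that of POLB, the gap-filling polymerase, at 6.28 and 4.55 FPKM (-0.39, counting range -0.89 to 0.10). Next came APTX, which removes adenylate from broken ends, at 18.4 and 17.1 FPKM (-0.10).

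ADP-ribose is taken off again by a second group of enzymes. Of 10 genes listed for these enzymes and their relatives, 7 passed the filter, with 2 higher and 5 lower and a median of -0.08. PARG, which cuts the chains, was 9.81 FPKM with normal food and 11.5 FPKM with depleted food (0.21, counting range 0.01 to 0.42). NUDT16, a hydrolase that can act on protein-bound ADP-ribose, was 12.0 and 12.4 FPKM (0.04). ADPRHL2, the hydrolase that removes the last unit from serine, was 21.8 and 20.6 FPKM (-0.08). The 1 gene past 1.2-fold was ADPRHL1, listed as such a relative, lower at 1.74 and 1.26 FPKM (-0.28). Its counting range of -0.94 to 0.38 spans 0. Among all genes, 10.5% were lower by at least 1.2-fold. PARP1 was 3.71 times as high as PARG on the normal diet and 3.46 times as high on the depleted diet.

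PARP4 is the PARP of the vault, a large ribonucleoprotein particle of the cytoplasm. It was 73.9 FPKM with normal food and 75.3 FPKM with depleted food, with a log2 ratio of 0.03 and a counting range of -0.05 to 0.10, the narrowest of the members. GENCODE release 29 holds 3 pseudogenes named after PARP4 and 2 named after PARP1, and reads could be split between a gene and such copies. Both protein partners in the vault differed little: MVP, the shell protein, was 94.2 and 88.2 FPKM (-0.09), and TEP1 was 7.21 and 7.70 FPKM (0.09).

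PARP9, PARP10, PARP12 and PARP14 are associated with interferon signalling and with antiviral defence. PARP9 forms a complex with the ubiquitin ligase DTX3L, and it was 22.4 FPKM with normal food and 22.3 FPKM with depleted food. Its log2 ratio was -0.007, with a counting range of -0.18 to 0.16, and became 0.04 after scaling to a common sum. DTX3L, whose gene starts next to that of PARP9 on the other strand, was 22.5 and 22.9 FPKM (0.03). Per length the ratio of PARP9 to DTX3L was 0.995 on the normal diet and 0.971 on the depleted diet. The genes overlap at their starts in GENCODE release 29, and the sources used here do not give the strand setting of the authors' counting.

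PARP10, which adds single units and was first described as a partner of MYC, was 9.43 FPKM with normal food and 9.28 FPKM with depleted food. Its log2 ratio was -0.02, with a counting range of -0.25 to 0.21, and became 0.02 after scaling to a common sum. Its span in GENCODE release 29 overlaps GRINA on the other strand, which was far higher at 73.6 and 74.5 FPKM. Without strand, reads from PARP10 and GRINA could not be told apart where their exons overlap.

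PARP12, a zinc finger enzyme that restrains some RNA viruses, was 13.6 FPKM with normal food and 13.1 FPKM with depleted food (-0.05, counting range -0.25 to 0.14). PARP14, a large enzyme with macrodomains that bind ADP-ribose and a partner of STAT6, was 30.3 and 31.8 FPKM (0.07, counting range -0.02 to 0.16). Its neighbour PARP15, on the same chromosome arm, was 3.91 and 3.33 FPKM (-0.18), with a counting range that spans 0. The 4 interferon-associated members together gave 75.8 FPKM with normal food and 76.5 FPKM with depleted food. None was past 1.2-fold.

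Promoter windows of PARP9, PARP12 and PARP14 hold a sequence that interferon-activated factors bind, and it is shown here beside that of IFIT1 and IFIT3, whose RNA is given after it. Of the 10 members, 7 had a promoter window in RefSeq's table (GRCh38.p14), each running from 250 bases before to 50 after a start. The core of the interferon-stimulated response element, written as GAAA, any 2 bases and GAAA, was searched on both strands. It was found for PARP9 (in 1 of its 2 windows), PARP12 and PARP14, and not in the windows of PARP1, PARP2, PARP3 and TNKS2. Across all 35116 windows 3.57% held it. Each line below gives 30 bases, 5′ to 3′ in the direction of the named gene, with the match in capitals, which reads TTTC, any 2 bases and TTTC where it lies on the other strand.
PARP9: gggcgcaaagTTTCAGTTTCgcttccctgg
DTX3L: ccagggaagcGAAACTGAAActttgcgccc
PARP12: ccggggccgcTTTCGGTTTCgtttcccgcc
PARP14: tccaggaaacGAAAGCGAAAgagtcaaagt
IFIT1: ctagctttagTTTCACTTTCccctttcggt
IFIT3: gttccatcagTTTCACTTTCctttcccctt

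PARP9 and DTX3L share 1 site, at chr3:122564322-122564351, read from the minus strand for PARP9 and from the plus strand for DTX3L. The PARP12 site is at chr7:140062942-140062971 on the minus strand, and the match begins 10 bases before the start. The PARP14 site is at chr3:122680800-122680829 on the plus strand, and the match begins 29 bases before the start. PARP14 also has a TTCNNNGAA match that begins 40 bases before the start and does not overlap the first. The IFIT1 site shown is at chr10:89392497-89392526 and that of IFIT3 at chr10:89332468-89332497, both on the plus strand. IFIT1 had 2 matches in its window and IFIT3 had 4 over 2 windows. A match describes the letters only and is not evidence of binding.

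The IFIT genes encode proteins that bind viral RNA or act with them, and their ratios were below 0. IFIT3 was 13.0 FPKM with normal food and 7.85 FPKM with depleted food (-0.66, counting range -0.94 to -0.39). IFIT2 was 6.17 and 3.81 FPKM (-0.58), and IFIT1 was 6.94 and 4.96 FPKM (-0.41). Of 31 interferon partners and targets, 29 passed the filter. In these 29 the ratio was above 0 for 7 and below 0 for 22, and the median was -0.15. At least 1.2-fold lower were 9, beside the background of 10.5%, while 0 were higher by that much, beside 10.2%. After scaling to a common sum, 10 of the 29 were above 0 and 19 below. The median was then -0.10, beside 0.04 for all genes. This list shares genes with one already known to be lower in these libraries and is no independent evidence of a direction.

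Genes of this list ran from -0.66 for IFIT3 to 0.18 for IFIH1. All but the 9 lay within 1.2-fold, as did the members other than PARP2. Among those past 1.2-fold and named after their values were seen, IFI44 was 28.9 and 21.0 FPKM (-0.45), and DDX58, a sensor of viral RNA, was 8.20 and 5.89 FPKM (-0.42). STAT2, a transcription factor that interferon activates, was 11.6 FPKM with normal food and 12.3 FPKM with depleted food (0.08, counting range -0.14 to 0.30). The highest ratio was that of IFIH1, another such sensor, at 7.81 and 9.02 FPKM (0.18, counting range -0.06 to 0.42). Whether the members and the IFIT genes differed from each other could not be tested with 1 library per diet.

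TNKS and TNKS2 encode the tankyrases, which mark proteins with ADP-ribose chains for ubiquitination by RNF146 and so set the level of AXIN in WNT signalling. TNKS was the lowest member, at 4.37 FPKM with normal food and 3.65 FPKM with depleted food. Its log2 ratio was -0.21, with a counting range of -0.39 to -0.02, from about 324 and 261 fragments on a transcript of 9620 bases. Of all genes, 14.8% had a ratio as low or lower. After scaling to a common sum the ratio of TNKS was -0.17, and a counting range of the same width around it would include no difference. TNKS2 was 18.5 and 17.7 FPKM (-0.06, counting range -0.20 to 0.07). It was 4.24 times as high as TNKS on the normal diet and 4.83 times as high on the depleted diet, without a counting range for that shift. Both tankyrases were lower, neither past 1.2-fold, and their sum was 22.9 and 21.3 FPKM.

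The partners and targets of the tankyrases were lower in 9 of the 11 that passed the filter, of 13 listed, with a median of -0.10. After scaling to a common sum, 7 of 11 were lower and the median was -0.05. Over all 12414 genes the ratio was above 0 in 6132 and below 0 in 6282. At 1.2-fold, 0 of the 11 were lower, beside 10.5% of all genes. The 2 higher genes were both past 1.2-fold, beside 10.2% of all genes. They were TERF1, which encodes the telomere protein that tankyrase was named for binding, at 7.91 and 11.2 FPKM (0.45, counting range 0.10 to 0.80), and LNPEP, an aminopeptidase of glucose transporter vesicles, at 4.54 and 5.69 FPKM (0.27, counting range 0.12 to 0.42). AXIN1, a scaffold that holds beta-catenin for destruction, had the lowest ratio at 27.6 and 24.1 FPKM (-0.19, counting range -0.33 to -0.04).

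AMOTL2, an angiomotin that restrains YAP, was 13.7 FPKM with normal food and 12.0 FPKM with depleted food (-0.18). AXIN2, which is also a target gene of WNT signalling, was 34.6 and 33.6 FPKM (-0.04). RNF146, the ligase that reads the tankyrases' mark, was 11.4 and 11.2 FPKM (-0.02).

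The 7 family genes that are not members were lower in 6 cases, with a median of -0.18. Of the 7, 2 were at least 1.2-fold lower and 0 were higher by that much, beside 10.5% and 10.2% of all genes. TIPARP, a single-unit enzyme induced by the aryl hydrocarbon receptor, which tryptophan products can activate, was 16.1 FPKM with normal food and 13.0 FPKM with depleted food (-0.28, counting range -0.46 to -0.10). PARP11 was 3.08 and 2.37 FPKM (-0.28), with a counting range of -0.59 to 0.03 that spans 0. ZC3HAV1, the antiviral zinc finger protein without enzyme activity, was 15.3 and 14.2 FPKM (-0.10), and PARP8, the 1 higher gene, was 4.28 and 4.39 FPKM (0.03). After scaling to a common sum 6 of 7 were again lower, and 0 of these genes were past 1.2-fold.

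Genes that make NAD, or act on NAD or nicotinamide in that pathway, showed both directions, with 4 of 8 higher and 4 lower. Their median was 0.01, and not all of the 8 are makers of NAD. NNMT, which methylates the nicotinamide that PARP enzymes release, was 6.74 FPKM with normal food and 9.50 FPKM with depleted food (0.44, counting range 0.09 to 0.79). It was the 1 gene of the 8 past 1.2-fold, beside 10.2% of all genes that were higher by that much. NAMPT, which returns nicotinamide to NAD, was 30.2 and 26.0 FPKM (-0.21, counting range -0.33 to -0.08). NMNAT1, the nuclear enzyme that makes NAD beside PARP1, was 3.11 and 3.58 FPKM (0.16, counting range -0.16 to 0.48), and NMRK1, which brings nicotinamide riboside into NAD synthesis, was 7.30 and 6.93 FPKM (-0.07).

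The other NAD consumers, the sirtuins and NAD hydrolases, had 6 genes of 10 above the filter. At 1.2-fold, 0 of the 6 were higher or lower, beside 10.2% and 10.5% of all genes. The median of the 6 was -0.13, with 2 ratios above 0 and 4 below. SIRT1, a nuclear deacetylase, was 8.11 FPKM in both libraries, and SIRT3, its mitochondrial relative, was 7.94 and 8.22 FPKM (0.04). SIRT7 was 21.5 and 18.8 FPKM (-0.18), and SIRT5 was 11.9 and 10.6 FPKM (-0.16). CD38, an NAD hydrolase of immune cells, was listed at 0 in both libraries.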

How the data were processed

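The deposited values are FPKM for 26255 gene symbols in each of 2 libraries, per the file headers. The submitters' processing notes list Bowtie2 2.2.8, TopHat2 2.1.1, Cuffdiff 2.2.1 and SAMtools 0.1.18 with the human build hg19, and give no role for any. The sources used here give no annotation, strand setting or removal of mouse reads, so mouse reads that resemble human sequence could add to the values.

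With Python 3.11.15 and numpy 2.4.6, log2 ratios were computed with a pseudocount of 1 FPKM, over genes averaging 1 FPKM or more, and counted at 1.2-fold. A count model was not used, since FPKM are not counts. The FPKM worth 1 fragment was taken from low genes with 1 transcript in GENCODE release 29 (369 and 378 genes), as the spacing at which FPKM times length, less 200 nt, lined up best. Its ratio between libraries was 1.04. These lengths are on another build, so counting ranges are approximate. On simulated counts for 19428 genes, the 1.2-fold count recovered 100% of 100 genes raised and 99% of 100 lowered by 1.5-fold. The changed genes were drawn from those at 10 FPKM or more, and the noise was counting noise only. Of unchanged genes at that level, 2.07% also passed 1.2-fold. The simulation therefore does not cover lower genes, differences below 1.5-fold or variation between tumours.

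The members and 8 lists of connected genes were chosen with earlier results of these data known. Genes named are all members, the 2 highest and 2 lowest of each list above the filter, and DTX3L, HPF1, PARG, TIPARP, ZC3HAV1, RNF146, AXIN2, XRCC1, NAMPT and NNMT; another gene of this rule is not reported here. LIG3, IFIT1, IFI44, DDX58, PARP15, GRINA, RPPH1 and CD38 were named after their values were seen. A planned comparison of catalytic residues was not run. Promoter sequences are RefSeq's.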

Additional observations from a re-analysis of the deposited data

How the results depend on the processing

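Alternatives changed the pseudocount, the filter, the fold or the scaling of the libraries, and all were planned. No paired analysis was possible because there is 1 library per diet, and leaving one out would leave a diet without data. Each of the 40 alternative log2 ratios of members moved by less than its counting range; that of PARP2 ran from -0.39 to -0.28, and that of TNKS from -0.25 to -0.11. The count of lower members was 0 at 1.5-fold and 0 at 2-fold. All 12414 genes gave 1266 higher and 1305 lower calls, against 1671 and 990 after scaling both to a common sum, 515 and 571 with a pseudocount of 5 FPKM, and 205 and 189 at 1.5-fold. Of 128 list counts, 25 moved by over 1.5 times. At 1.5-fold the interferon list had 1 gene lower (IFIT3) and at 2-fold 0; the other lists had 0 at either fold. With a pseudocount of 5 FPKM, 5 interferon genes were lower, 1 repair and 1 tankyrase gene were higher, and lower counts were 0 for repair, ADP-ribose removal and other family genes. Scaled to a common sum, ADP-ribose removal and other family genes had 0 lower. With a filter of 5 FPKM the former had 0 and the latter 1. Without a filter, other NAD consumers had 1 higher. A higher fold, a larger pseudocount and a stricter filter let fewer genes pass by construction. Depth limits low and short genes, such as HPF1, POLB and ADPRHL1, whose counting ranges span 0.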

Other observations

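A few genes named for the members belong to none of the lists, and they were chosen after their values were seen. TNKS1BP1, a tankyrase-binding protein also linked to the cytoskeleton and mRNA deadenylation, was 53.0 FPKM with normal food and 58.6 FPKM with depleted food, a log2 ratio of 0.14. PARPBP, which binds PARP1 and restrains homologous recombination, was 7.41 and 6.93 FPKM (-0.09). The antisense transcript TNKS2-AS1 was 0.725 FPKM on the normal diet and listed at 0 on the depleted diet, and both values are too low for a comparison. PARGP1, a pseudogene of PARG, was 3.50 and 3.16 FPKM (-0.11), opposite in sign to PARG.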
